A study of Homo sapiens with 2 samples.

Results

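The expression of genes of the hypoxia response and of glycolysis was compared between untreated H2228 cells and H2228 cells treated with IL4. The genes were taken from a list of 36 names, comprising 19 hypoxia-inducible factor (HIF) subunits, oxygen sensors and HIF targets and 17 glycolytic genes. A gene was represented by probe sets annotated to it alone, and its brightest probe set, by the mean of both arrays, stood for it. In this way 35 of the 36 genes were measured, among 19775 genes in all. CA9 was not analysed here, which left 18 HIF-related genes. Both cultures were of H2228, a line of human lung adenocarcinoma cells with the EML4-ALK variant 3 fusion gene. RNA of 1 untreated and 1 IL4-treated culture was hybridized to 1 array each, so the conditions could not be tested against each other and every difference below is one between 2 arrays. The series description gives 100 ng/mL IL4 for 30 min. The labels of both samples also mention transfection with EML4-ALK plasmids, siRNAs or negative controls for 48 h, without saying what these 2 cultures had received.

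In well oxygenated cells, prolyl hydroxylases of the EGLN family mark the HIF alpha subunits for destruction, and the subunits accumulate when oxygen is low. HIF is therefore controlled mainly at the protein level, which arrays do not measure. An alpha subunit pairs with ARNT, binds the core DNA motifs ACGTG or GCGTG, and turns on genes of blood vessel growth, matrix crosslinking, mitochondrial removal and glycolysis. Glycolysis converts glucose to pyruvate and lactate, and tumour cells often run it at a high rate even with oxygen present. Many HIF targets also respond to growth factors and cytokines.

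Values are deposited log2 expression values and are compared within a gene only, since probe sets differ in brightness. Genes were called higher or lower from a difference of 1.5-fold upwards. The median of all probe sets, 5.03, separates dim from brighter values, and all 35 genes lay above it in both arrays. By this measure 635 (3.21%) of all 19775 genes were higher with IL4, whereas 868 (4.39%) were lower. Among the 12949 genes whose mean reached the median level, as all 35 genes here did, the shares were 4.34% and 5.88%. For 6056 genes with a second probe set above that level, the log2 difference of the first minus that of the second had a standard deviation of 0.25, which reflects disagreement within the same arrays and not between cultures. The median difference of all probe sets was 0. All 11 measured epithelial markers were above the median level in both arrays, and so were 7 of 8 lung markers in each. Some of them differed between the arrays. Of the epithelial markers 1 was at least 1.5-fold higher with IL4 (CDH1, log2 difference 0.75) and 2 were lower (ELF3, -1.35, and ESRP1, -0.72), and of the lung markers 2 were lower (NKX2-1, -0.97, and FOXA2, -0.78). Of 8 leukocyte markers 2 were above it in each array, as were 4 of 10 fibroblast and 4 of 10 endothelial markers, and the highest fibroblast marker, the collagen gene COL1A1, had 10.82 and 11.23. The summed log2 values were 35.1 and 35.5 for leukocyte, 55.0 and 56.3 for fibroblast and 44.4 and 45.7 for endothelial markers in untreated and IL4-treated cells. Their part in the differences below was not tested. SOCS1, IL4R and the chemokine gene CCL26, which are known targets of STAT6, were at least 1.5-fold higher in the IL4 array, and CISH was 1.25-fold higher. CCL26 was dim in the untreated array, at 4.21. The 4 probe sets of SOCS1 had log2 differences from 0.22 to 2.24, and the 3 of CISH from 0.33 to 0.59.

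**Figure D1:**
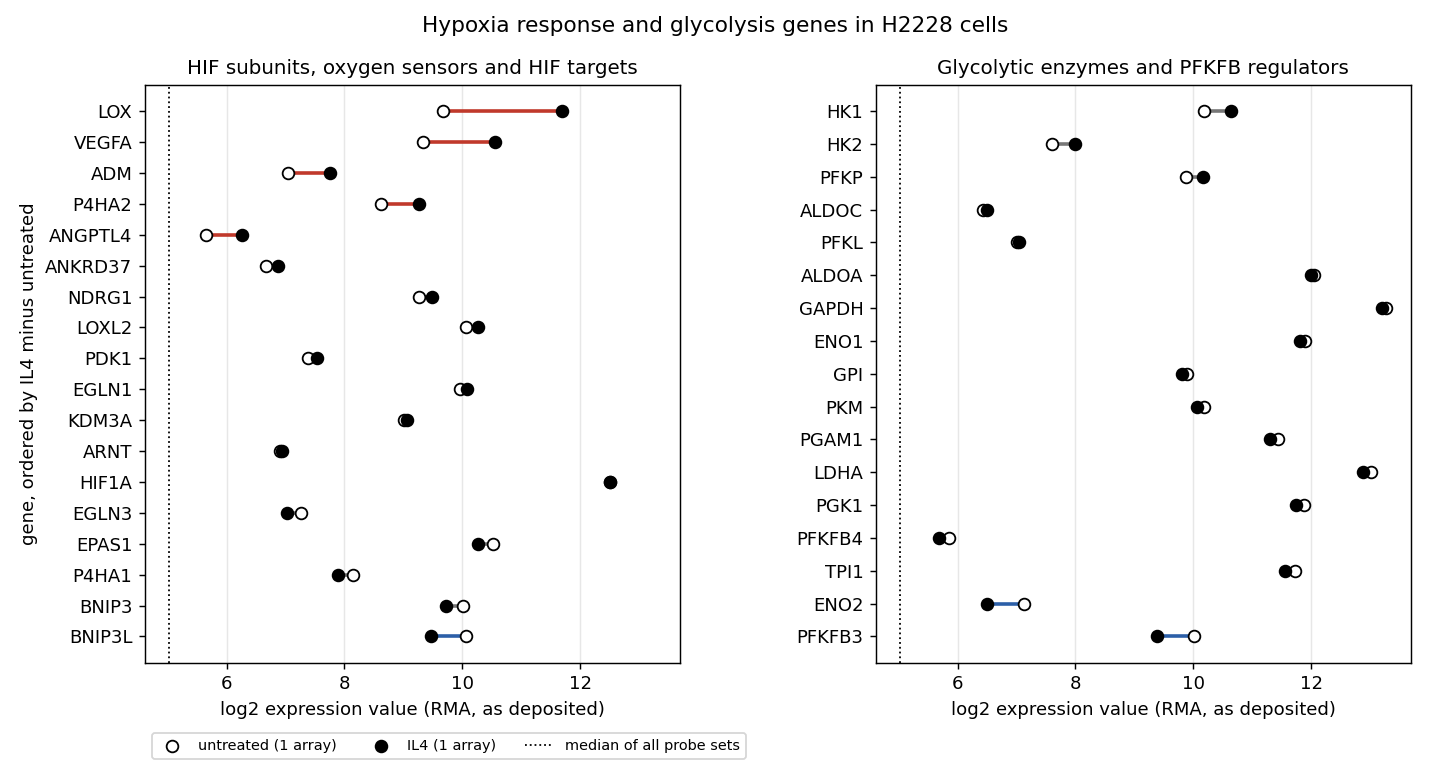
Log2 expression values (x axis) of 18 HIF-related genes (left) and 17 glycolytic genes (right) in untreated (open circles) and IL4-treated cells (filled circles), from 1 array per condition. Red lines join values at least 1.5-fold higher after IL4 and blue lines those at least 1.5-fold lower. LOX shows the widest gap, from 9.68 to 11.69, whereas both circles of HIF1A coincide at 12.50 and 12.51.

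Among the HIF-related genes, 4 of 5 secreted proteins and 1 of 2 collagen hydroxylases were higher with IL4, but none of the HIF subunits, oxygen sensors or other targets was. Past 1.5-fold, 5 of the 18 genes (27.8%) were higher and 1 (5.56%) was lower, against 4.34% and 5.88% of genes at or above the median level. The share of lower genes was thus close to that of all such genes. The members were chosen with earlier results of these data known, so the share of higher genes is not independent support. The median log2 difference was 0.13, compared with -0.028 for the genes at or above the median level.

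Among the secreted proteins and matrix enzymes, LOX had the largest difference. LOX encodes lysyl oxidase, which crosslinks collagen and elastin outside the cell. Its log2 value was 9.68 in untreated cells and 11.69 with IL4, a 4.05-fold difference that ranked 31 from the top of all 19775 genes. The further LOX probe sets went from 7.73 to 10.17 and from 4.63 to 6.47, so that the log2 differences of its 3 probe sets ranged from 1.84 to 2.43. LOXL2, a lysyl oxidase of the same family, had 10.06 and 10.27, a log2 difference of 0.21. VEGFA, the vascular endothelial growth factor that drives vessel growth, had 9.33 in untreated and 10.55 in IL4-treated cells, a 2.33-fold higher value and rank 143. Its 4 probe sets had log2 differences from 0.91 to 1.40, all above 1.5-fold. LOX and VEGFA were the only HIF-related genes past 2-fold.

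ADM, which encodes the vasodilator peptide adrenomedullin, had 7.05 and 7.76 from its 1 probe set and was 1.64-fold higher, at rank 448. ANGPTL4, a secreted inhibitor of lipoprotein lipase, had 5.64 and 6.26 and was 1.53-fold higher, at rank 584. Its second probe set had a log2 difference of 0.47, which is under 1.5-fold. Thus 4 of the 5 secreted proteins were past 1.5-fold and LOXL2 was not.

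Collagen prolyl 4-hydroxylases, which stabilize the collagen triple helix, differed between the isoforms. P4HA2 had 8.62 in untreated and 9.26 in IL4-treated cells, a 1.55-fold higher value, and its second probe set above the median level had a log2 difference of 0.48. P4HA1 had 8.15 and 7.89, a log2 difference of -0.25. Its further probe set, which was dim at 1.60 and 1.87, had the opposite sign.

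The HIF subunits themselves were at similar levels in both arrays. HIF1A, the main oxygen-regulated alpha subunit, had 12.50 and 12.51 from its 1 probe set. EPAS1, which encodes HIF2 alpha, had 10.52 in untreated cells and 10.27 with IL4, a log2 difference of -0.25. The common partner ARNT had 6.91 and 6.94, and its 7 probe sets ranged from -0.38 to 0.29. EGLN1, the main HIF prolyl hydroxylase, had 9.96 and 10.08. EGLN3, a hydroxylase that is itself a HIF target, had 7.25 and 7.02 with one probe set and 6.40 and 6.42 with the other. None of these 5 genes passed 1.5-fold.

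Of the 6 remaining HIF targets, 0 were past 1.5-fold higher and 1, BNIP3L, was lower. BNIP3L, which encodes a receptor for removal of mitochondria, had 10.07 in untreated cells and 9.46 with IL4 and was 1.52-fold lower, but its second probe set had a log2 difference of -0.20. Averaged over its probe sets, after a loess correction on the mean level and after quantile normalization, BNIP3L had -0.40, -0.53 and -0.58, which is under 1.5-fold. The related receptor gene BNIP3 had 10.02 and 9.73, log2 differences of -0.29 and, with its second probe set, -0.10, both under 1.5-fold. The stress-responsive gene NDRG1 had 9.27 and 9.48, ANKRD37 had 6.66 and 6.87, and the histone demethylase gene KDM3A had 9.02 and 9.06. PDK1, a mitochondrial kinase that inhibits pyruvate dehydrogenase, had 7.39 and 7.54, and its 3 probe sets had log2 differences from 0.15 to 0.30.

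The signs of the probe sets of a gene were compared among the members only, so no share over all genes stands beside this count. The 35 genes had 85 probe sets, of which 19 had a mean below the median level. Of 19 genes with several probe sets at or above it, 14 had the same sign in all of them. The exceptions were ARNT, EGLN3, PFKL, ENO1 and PKM, whose differences ranged from -0.26 to 0.12 in these probe sets. Dim probe sets are outside this count, and those of P4HA1 and PFKFB4 had the sign opposite to that of the brighter one.

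The glycolytic genes as a group were close to zero difference. Of the 17, 0 were at least 1.5-fold higher, against 4.34% of genes at or above the median level, a share that amounts to few among 17 genes. Lower by as much were 2 genes (11.8%), against 5.88% of genes at or above the median level. Of the others, 5 had a positive and 10 a negative difference. The median log2 difference was -0.092, compared with -0.028 for the genes at or above the median level.

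In pathway order, HK1, HK2 and PFKP had the largest positive differences of the 17 genes, all under 1.5-fold. Hexokinases trap glucose in the cell by phosphorylation. HK1 had 10.18 in untreated cells and 10.64 with IL4, and HK2 had 7.60 and 7.99, log2 differences of 0.45 and 0.39 that are 1.37-fold and 1.31-fold. All 3 probe sets of HK2 had positive differences. GPI, the isomerase of the next step, had 9.89 and 9.80. The phosphofructokinase PFKP had 9.88 and 10.17, a 1.22-fold difference, whereas the liver-type isoform PFKL had 7.01 and 7.04. The muscle isoform PFKM, from the list of further genes had 7.90 and 7.55, a log2 difference of -0.35.

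Both PFKFB genes among the 17, regulators of phosphofructokinase, had negative differences in the probe set standing for the gene. PFKFB3 makes fructose 2,6-bisphosphate, the activator of phosphofructokinase. It had 10.02 in untreated and 9.38 in IL4-treated cells, a 1.55-fold lower value and rank 717 from the bottom of all genes. It was read by 1 probe set only, and after the loess correction its log2 difference was -0.57, under 1.5-fold, which left 1 lower glycolytic gene, ENO2. PFKFB4, another enzyme of this family, had 5.85 and 5.68, and its dim second probe set had a log2 difference of 0.19. PFKFB2 and PFKFB1, from the list of further genes, had log2 differences of 0.036 and 0. Their probe sets ranged from -0.033 to 0.48 and from -0.13 to 0.

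Further down the pathway, the main enzymes from aldolase to lactate dehydrogenase differed by less than 1.5-fold. ALDOA, TPI1, GAPDH, PGK1, PGAM1, ENO1, PKM and LDHA, which split the hexose, harvest ATP and NADH and make lactate, had log2 differences from -0.17 to -0.048. Other probe sets of ENO1 and PKM above the median level had differences of up to 0.049 and 0.12. GAPDH had 13.27 in untreated cells and 13.21 with IL4, and LDHA had 13.01 and 12.88. Of these 8 genes, 7 had a mean of 11 or more, a level chosen after the values were seen. All of the 7 had negative differences under 1.5-fold, with a median of -0.12, and the 537 genes of that level in the whole table had a median of -0.070, with a positive difference for 33.9% of them. After a loess correction on the mean level, the same 8 genes had log2 differences from -0.11 to 0.014. The control probe sets for GAPDH along its transcript had log2 differences of -0.067, -0.067 and -0.051, close to the -0.066 of the gene itself. The corresponding controls for ACTB had 0.24 at the 3′ end, 0.49 in the middle and 0.55 at the 5′ end, so that the 3′ minus 5′ difference moved by -0.30 for ACTB and by -0.015 for GAPDH. The part of this shift in the differences reported here was not tested. The third probe set of TPI1, at 6.89 and 6.21, had -0.68, but the brighter ones had -0.17 and -0.21. Several of these genes have processed pseudogenes, and probe sets that can bind several transcripts may read them too.

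ENO2, the neuronal enolase and a HIF target, had 7.13 in untreated and 6.50 in IL4-treated cells, a 1.55-fold lower value and rank 736 from the bottom. ENO2, too, was read by 1 probe set only. ENO1, the common enolase, had 11.89 and 11.81. ALDOC, the brain aldolase, had 6.44 and 6.50. ENO2 and PFKFB3 were the only glycolytic genes past 1.5-fold.

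**Figure D2:**
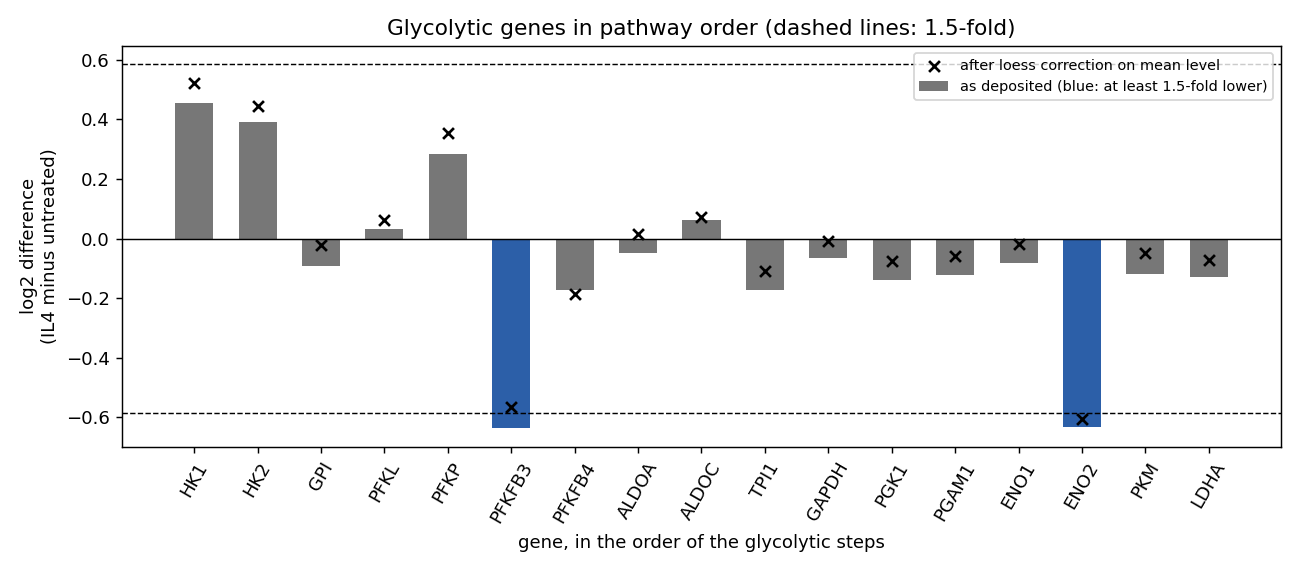
Log2 difference between IL4-treated and untreated cells (y axis) for the glycolytic genes in the order of the pathway (x axis), from 1 array per condition. Bars are the deposited values, blue where at least 1.5-fold lower, crosses the values after a loess correction on the mean level, and dashed lines 1.5-fold. HK1 and HK2 reach 0.45 and 0.39, PFKFB3 and ENO2 reach -0.64 and -0.63, and the bars from TPI1 to LDHA, ENO2 apart, are short.

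Promoter sequences were examined for the motif of HIF, because genes with and without a difference are among its classical targets. A promoter was the 250 bases before the outermost annotated start of a gene in RefSeq (GRCh38.p14), and 31 of the 35 genes matched the table. Those without an entry were VEGFA, LOXL2, BNIP3L and NDRG1. The motifs ACGTG and GCGTG were searched on both strands, and CACGTG, which reads ACGTG on each strand, counts as 2 overlapping matches. At least 1 match was found in 10 of 14 HIF-related promoters and 12 of 17 glycolytic promoters, compared with 50.8% of the promoters of 15384 measured genes and 43.1% of all 27305 promoters. The STAT motif TTCNNNNGAA was in none of the 31 promoters and in 4.50% of those of the measured genes. The promoters of 5 genes are printed 5′ to 3′ on the strand of the gene, with matches to ACGTG or GCGTG on either strand in capitals. They are those of LOX (chr5:122078260-122078509, minus strand) and ADM (chr11:10304823-10305072, plus strand), which were higher with IL4, of ENO2 (chr12:6914330-6914579, plus strand) and PFKFB3 (chr10:6144671-6144920, plus strand), which were lower, and of LDHA (chr11:18394313-18394562, plus strand), which was at a similar level in both arrays.
LOX: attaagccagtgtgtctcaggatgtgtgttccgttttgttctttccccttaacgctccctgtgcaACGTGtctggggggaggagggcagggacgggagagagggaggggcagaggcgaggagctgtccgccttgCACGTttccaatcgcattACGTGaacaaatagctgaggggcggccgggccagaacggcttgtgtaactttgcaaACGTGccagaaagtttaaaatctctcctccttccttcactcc
ADM: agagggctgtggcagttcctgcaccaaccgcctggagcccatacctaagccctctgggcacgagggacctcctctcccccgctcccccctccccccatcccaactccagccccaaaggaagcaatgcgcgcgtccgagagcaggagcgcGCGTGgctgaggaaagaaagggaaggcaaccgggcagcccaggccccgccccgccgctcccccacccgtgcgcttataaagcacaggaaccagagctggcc
ENO2: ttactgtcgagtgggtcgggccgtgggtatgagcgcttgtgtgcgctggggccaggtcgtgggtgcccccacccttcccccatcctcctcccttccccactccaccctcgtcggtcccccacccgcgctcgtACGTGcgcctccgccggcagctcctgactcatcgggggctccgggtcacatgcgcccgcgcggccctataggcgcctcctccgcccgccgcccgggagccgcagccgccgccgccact
PFKFB3: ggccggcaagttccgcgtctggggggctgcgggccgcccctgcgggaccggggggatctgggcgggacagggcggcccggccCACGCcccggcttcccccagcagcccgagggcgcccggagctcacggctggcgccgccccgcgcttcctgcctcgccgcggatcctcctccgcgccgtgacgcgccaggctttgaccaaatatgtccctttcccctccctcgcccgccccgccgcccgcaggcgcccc
LDHA: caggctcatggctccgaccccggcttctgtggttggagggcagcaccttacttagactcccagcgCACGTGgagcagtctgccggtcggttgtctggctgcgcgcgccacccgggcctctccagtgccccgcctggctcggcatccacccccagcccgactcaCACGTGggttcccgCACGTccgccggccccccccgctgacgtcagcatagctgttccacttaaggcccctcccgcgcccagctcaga

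LOX had 4 matches, beginning 185, 116, 98 and 42 bases before the start, and LDHA had 5, of which 4 lie in a pair of CACGTG sequences. LOX was 4.05-fold higher and LDHA had a log2 difference of -0.13. ADM, ANGPTL4, ENO2 and PFKFB3 had 1 match each, and P4HA2, which was higher, had none. Of the 6 promoters searched of genes past 1.5-fold, 5 had a match. The share was 10 of 14 for HIF-related, 12 of 17 for glycolytic and 50.8% for measured genes. Whether a match goes with a difference was not tested. A match is a stretch of letters and not a measured binding site.

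Further genes of both systems were described from lists of 50 hypoxia genes and 30 genes of glycolysis and pyruvate use. Past 1.5-fold, 8 of 48 measured hypoxia genes (16.7%) were higher, against 3.21% of all genes, and 2 (4.17%) were lower, against 4.39% of all genes, a share close to the background. Of the 48 genes, 43 had a mean at or above the median level, where the shares were 4.34% and 5.88%. The lists were chosen with earlier results of these data known, so the higher share is not independent support. The median log2 difference was 0.049. STC2, which encodes the hormone stanniocalcin 2, had 9.58 in untreated cells and 11.54 with IL4 and was 3.89-fold higher. EDN1, the precursor gene of the vasoconstrictor endothelin 1, had 7.14 and 8.76 and was 3.08-fold higher. TGFA, a ligand of the EGF receptor, had 9.30 and 10.65 and was 2.55-fold higher.

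Among the others, the urokinase receptor gene PLAUR was 2.71-fold higher, at 8.38 and 9.82, and its 3 probe sets had log2 differences from 0.34 to 1.70. CITED2, which competes with HIF for its coactivator, had 7.83 and 9.08 and was 2.37-fold higher, although 1 of its 3 probe sets had a log2 difference of -0.015. ERRFI1, an inhibitor of EGF receptor signalling, had 10.88 and 11.94 and was 2.09-fold higher. These genes also respond to stimuli other than low oxygen. The lower genes were DDIT4, an inhibitor of mTOR signalling, at 8.27 and 6.95 and 2.50-fold lower, and the cyclin gene CCNG2 at 8.14 and 7.16 and 1.97-fold lower. One of the 5 CCNG2 probe sets had a log2 difference of 0.24.

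The glucose transporter gene SLC2A1, a HIF target that feeds glycolysis, had 8.83 and 8.90, and its probe sets had log2 differences of 0.073 and 0.081. Of 24 measured genes from the further list of glycolysis and pyruvate use, none passed 1.5-fold, and the median log2 difference was -0.12. Among all genes 3.21% were higher and 4.39% lower, shares that amount to few among 24 genes. The 24 genes ran from DLAT, a subunit of the pyruvate dehydrogenase complex, at 9.32 and 8.90, to TIGAR, a phosphatase that opposes PFKFB enzymes, at 8.24 and 8.68. PDK4, dim at 4.07 and 3.77, had a log2 difference of -0.29, but its 3 probe sets ranged from -1.52 to 0.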

How the data were processed

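RNA of an untreated and an IL4-treated H2228 culture was measured on Affymetrix Human Genome U133 Plus 2.0 arrays, 1 per culture. The authors deposited expression on a log2 scale, with a value for each probe set and array. RMA, which corrects background, equalizes arrays and summarizes probes, is named in the submitters' processing notes, and GCOS in the methods of the paper. No genome build is given in the sources used here. The values were not normalized again.

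The annotation of the array gave a single gene for 41091 of 54675 probe sets, and 41037 of these were brought to the current symbol through the RefSeq table of GRCh38.p14. Control probe sets represented no gene. The log2 difference was IL4 minus untreated. The members and lists were chosen with earlier results of these data known. All 35 members were described, as were genes of the further lists past 1.5-fold with 1 array at or above the median level, up to 6 per list and direction. SLC2A1, DLAT, TIGAR, PFKM, PFKFB1, PFKFB2 and PDK4 were named beyond this rule, after their values were seen. No test was made, since each condition has 1 array, and the number of arrays limits the precision. Calculations were tested on simulated data with planted 2-fold differences and little noise. This checks the calculation and not the reliability of differences near 1.5-fold. Python 3.11.15, numpy 2.4.6, pandas 2.3.3, statsmodels 0.14.6 and matplotlib 3.10.9 were used. The alternatives are given in the closing section.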

Additional observations from a re-analysis of the deposited data

How the results depend on the processing

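Median centring and the median floor could not change the counts of the HIF-related and glycolytic genes. The median difference of all probe sets was 0, and all 35 genes lay above the floor. At 2-fold, 2 HIF-related genes were higher and 0 were lower, 0 glycolytic genes were lower, and 1 of the further hypoxia genes was lower. Averaged over probe sets, 3 HIF-related genes were higher and 0 were lower, since ANGPTL4 (0.54), P4HA2 (0.42) and BNIP3L (-0.40) no longer passed 1.5-fold. With this averaging 1 further glycolysis gene, PDK4 (-0.60), was lower. When probe sets open to several transcripts were left out, 21 of the 35 genes remained measured, LOX and VEGFA not among them. Then 2 of 11 HIF-related genes were higher and 1 further hypoxia gene was lower. The medians of the further hypoxia and glycolysis genes were 0.11 and 0. Lower were 2 of 10 glycolytic genes, ENO2 (-0.63) and, in place of PFKFB3, which was no longer measured, TPI1 (-0.68). With the loess correction (fraction 0.3), 0 HIF-related genes and 1 glycolytic gene were lower, as BNIP3L had -0.53 and PFKFB3 -0.57, and the glycolytic median was -0.021. With quantile normalization 0 HIF-related genes were lower, BNIP3L having -0.58. A median was counted as moved past 0.25 divided by the square root of the number of genes. No value past 1.5-fold turned its sign under any alternative, but smaller ones did. Averaging over probe sets turned the sign of 5 of the 35 genes, ARNT, P4HA1, PFKL, PKM and PFKFB4. The loess correction turned that of 1, and leaving out probe sets open to several transcripts that of 1 of 21. No paired analysis was possible because each condition has 1 array, and no replicate could be left out.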
